A study of Mus musculus with 2 samples.

Results

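Endothelial cells line the vessels of the pharyngeal arches, and 46 genes known for their use in these cells were followed here in the mouse mandibular prominence, the facial swelling that forms the lower jaw and carries the early tongue. Membership goes by a list of gene symbols, and all 46 were found among the 30723 gene symbols of the deposited tables. The series holds 1 library of control embryos and 1 library of Kif3a f/f ; Wnt1-Cre embryos, each from the pooled prominences of 10 embryos on a mixed CD1 background, labelled E11.5. Kif3a encodes a subunit of the kinesin-2 motor that builds cilia, and Wnt1-Cre deletes floxed genes in neural crest cells and their descendants. Endothelium does not derive from the neural crest, so the vessel cells themselves are not a main target of this Cre. The genotype of the controls is given by the labels only as control. The names of the deposited tables give different sequencing runs for the libraries, and e11 rather than e11.5 for the mutant. Run, stage and genotype therefore cannot be told apart. With 1 library per group there was no replicate and no test between conditions.

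Blood vessels of the arches grow from mesodermal angioblasts. VEGF acts on them through the receptor kinases Kdr, Flt1 and Flt4, and angiopoietins act through Tek, with Tie1 as its partner. ETS factors such as Erg, Fli1 and Ets1 and the SOXF factors Sox7, Sox17 and Sox18 set the endothelial programme, and the junction proteins Cdh5, Pecam1, Cldn5 and Esam hold the cells of the vessel wall together.

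Values are FPKM (fragments scaled to transcript length in kilobases and to library size) summed over the transcripts of a gene. The log2 ratio is log2((mutant FPKM + 1) / (control FPKM + 1)), which understates differences of low genes. A gene was compared when its mean FPKM over both libraries was 1 or more, which 12259 genes reached. A gene was counted as 2-fold different at a log2 ratio of at most -1 or at least 1. Intervals in parentheses are 95% exact Clopper-Pearson intervals on fragment numbers approximated from the deposited coverage, about 24700000 for control and 24500000 for mutant tissue, and cover counting error only. They are centred on the FPKM ratio, and the fragments set their width. Levels are given with the control first. Kif3a, the targeted gene, had 11.46 FPKM in control and 5.39 in mutant tissue, 2.12-fold lower (1.95 to 2.32). Its value comes from the whole prominence, which also holds cells outside the neural crest, and from all exons rather than those deleted.

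As a group, endothelial genes were modestly lower in the mutant library than the median gene. Of the 46 genes, 38 were over the filter and 8 under it. Of the 38, 33 had a log2 ratio below 0, where 67.9% of all compared genes did. The median log2 ratio of the 38 was -0.34, against -0.13 for all compared genes, and over all 46 it was -0.28. When both libraries were scaled to a common FPKM total, the median of the 38 was above 0, at 0.094, and that of all genes at 0.39, so directions are best read relative to the median gene. The 38 ratios ran from -0.89 for Sox18 to 0.29 for Calcrl. None of the 38 was 2-fold lower, where 1.36% of all compared genes were, and 0 were 2-fold higher, where 0.767% were. The whole counting interval of the FPKM ratio lay below the ratio of the median gene, 0.902, in 22 of the 38, against 29.1% of all compared genes, and above it in 4, against 32.1%. Summed over all 46 genes, the level was 272.5 FPKM in control and 199.7 in mutant tissue, or 0.733 of the control. In a library from bulk tissue, fewer endothelial cells and less RNA per endothelial cell cannot be told apart. In the same libraries the 14 erythroid genes summed to 0.284 of their control level, and the part of blood content in the endothelial ratios was not tested.

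**Figure D1:**
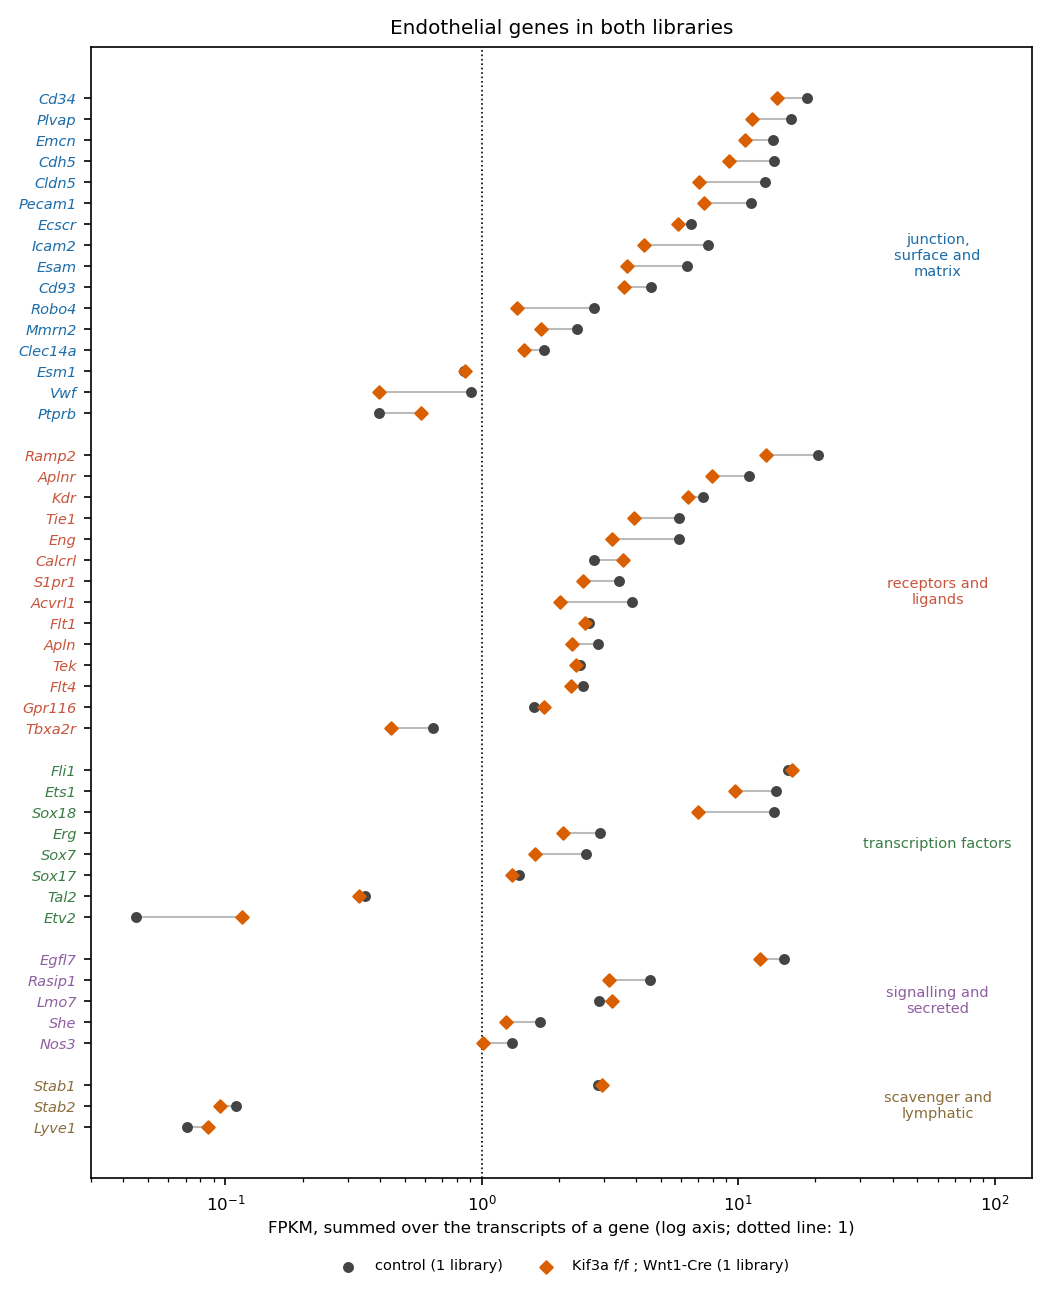
FPKM of the 46 endothelial genes in the control library (grey circles) and the Kif3a f/f ; Wnt1-Cre library (orange diamonds) on a log axis, grouped by role and ordered by mean level within a role; there are no error bars because each group is 1 library. Most orange points lie left of the grey ones, from Ramp2 at 20.5 and 12.8 FPKM down to Nos3 at 1.32 and 1.01, while Calcrl, Fli1, Lmo7, Gpr116 and Stab1 lie slightly to the right among the genes over the dotted line.

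Promoter sequences are shown because the genes are grouped by a shared cell type, and ETS factors are known to bind many endothelial promoters. RefSeq (GRCm38.p6) gave a promoter for 25 of the 46 genes, 24 of them within 100 bases of the deposited transcript start. Acvrl1, Aplnr, Cd93, Cdh5, Ecscr, Esam, Ets1, Fli1, Icam2, Lyve1, Mmrn2, Nos3, Pecam1, Plvap, Ptprb, Ramp2, S1pr1, Sox17, Sox18, Sox7 and Vwf had no entry. Printed are the 250 bases before the start site, 5′ to 3′ on the strand of the gene, for the 3 genes with the lowest and the 3 with the highest log2 ratio among those that had an entry and were over the filter. Capitals mark the ETS-type word CAGGAA or its reverse complement TTCCTG.
Cldn5 (chr16:18776597-18776846, plus strand): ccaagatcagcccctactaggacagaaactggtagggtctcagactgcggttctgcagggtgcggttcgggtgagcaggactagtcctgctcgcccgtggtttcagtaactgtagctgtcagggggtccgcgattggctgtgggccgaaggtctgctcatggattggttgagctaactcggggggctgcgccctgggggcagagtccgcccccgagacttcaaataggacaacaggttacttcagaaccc
Eng (chr2:32646345-32646594, plus strand): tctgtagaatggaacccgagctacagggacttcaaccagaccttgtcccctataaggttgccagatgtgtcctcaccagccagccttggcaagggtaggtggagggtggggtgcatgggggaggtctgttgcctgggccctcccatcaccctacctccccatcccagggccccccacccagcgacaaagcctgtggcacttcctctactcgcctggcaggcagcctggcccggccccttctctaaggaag
Robo4 (chr9:37401722-37401971, plus strand): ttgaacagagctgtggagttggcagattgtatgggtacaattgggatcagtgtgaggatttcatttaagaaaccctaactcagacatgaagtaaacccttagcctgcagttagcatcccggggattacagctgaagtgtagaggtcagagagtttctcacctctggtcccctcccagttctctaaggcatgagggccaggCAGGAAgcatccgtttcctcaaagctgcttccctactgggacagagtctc
Gpr116 (chr17:43389216-43389465, plus strand): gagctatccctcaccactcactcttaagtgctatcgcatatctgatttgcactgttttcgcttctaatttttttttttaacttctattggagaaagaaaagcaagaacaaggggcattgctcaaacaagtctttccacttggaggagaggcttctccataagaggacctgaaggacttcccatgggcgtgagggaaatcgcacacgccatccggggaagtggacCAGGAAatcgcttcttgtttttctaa
Lmo7 (chr14:101729678-101729927, plus strand): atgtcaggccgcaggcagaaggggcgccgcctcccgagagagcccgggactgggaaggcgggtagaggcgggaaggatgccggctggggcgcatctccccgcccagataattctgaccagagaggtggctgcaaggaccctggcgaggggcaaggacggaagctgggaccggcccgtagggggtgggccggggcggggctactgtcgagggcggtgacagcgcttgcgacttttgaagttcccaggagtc
Calcrl (chr2:84425267-84425516, minus strand): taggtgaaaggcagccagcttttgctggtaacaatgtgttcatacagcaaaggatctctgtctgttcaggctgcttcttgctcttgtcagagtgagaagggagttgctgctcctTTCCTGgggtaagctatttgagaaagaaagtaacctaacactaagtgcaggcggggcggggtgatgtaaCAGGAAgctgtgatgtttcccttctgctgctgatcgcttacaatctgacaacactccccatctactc

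CAGGAA was searched on both strands of these 250 bases. It occurred in 16 of the 25 endothelial promoters (64%) and in 25.7% of all 32851 promoters of the table, and 7 of the 25 (28%) held it more than once, against 4.17% of all. The longer word CAGGAAG, which contains it, occurred in 9 of the 25 (36%), against 10.8% of all promoters. AACAGGAA, which also contains it, occurred in 2 (8%), against 2.25%. The ETS-type word CCGGAA was in 1 of the 25 (4%), against 12.0% of all promoters, and ACCGGAAG, which contains it, in 0, against 1.72%. The SOX-type word AACAAT was in 4 of the 25 (16%), against 9.42%, the GATA-type word GATAA in 3 (12%), against 22.6%, and the KLF-type word CACCC in 16 (64%), against 52.0%. The median GC content was 58.4% in the 25 and 52.4% in all promoters. The 25 are 1 promoter per gene, the one nearest the deposited start. The 32851 were not limited to 1 per gene or to genes expressed in these libraries, so the sets are not alike. Among the 20 genes with a promoter and over the filter, the 13 with CAGGAA had a median log2 ratio of -0.29 (-0.66 to 0.29) and the 7 without it -0.17 (-0.78 to 0.13), and these ranges overlapped. Both the gene with the highest log2 ratio, Calcrl, and the third lowest of the 20, Robo4, held the word, whereas Cldn5 and Eng did not.

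Genes of endothelial junctions, surface and matrix had the lowest median of the roles. All 13 over the filter lay below the median gene, and their median was -0.47. The 3 under the filter, Vwf, Esm1 and Ptprb, are given below and differed in direction. Cldn5, which encodes the tight junction protein claudin-5, lies on chromosome 16 from 18776847 to 18778262 and stood at 12.8 FPKM in control and 7.02 in mutant tissue. It was 1.82-fold lower (1.56 to 2.13), a log2 ratio of -0.78, lower than in all but 2.52% of compared genes. Icam2, an adhesion molecule of endothelium, platelets and leukocytes, on chromosome 11 from 106377656 to 106382641, stood at 7.60 and 4.31 FPKM, 1.76-fold lower (1.42 to 2.19). Robo4, a roundabout family receptor that steadies vessels, stood at 2.75 and 1.37 FPKM. On FPKM it was 2.01-fold lower (1.62 to 2.50), and its log2 ratio with the pseudocount was -0.66. Esam, an adhesion molecule of endothelial tight junctions, lies 114067 bases from Robo4 on chromosome 9. It stood at 6.32 and 3.70 FPKM, and its log2 ratio of -0.64 differed from that of Robo4 by 0.02.

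Cdh5, Pecam1 and Plvap were intermediate within this group. Cdh5, or VE-cadherin, the adherens junction protein that defines endothelium, lies on chromosome 8 from 104101625 to 104144502 and had 13.8 FPKM in control and 9.24 in mutant tissue, a log2 ratio of -0.53. Pecam1 stood at 11.2 and 7.34 FPKM (log2 ratio -0.55). Plvap, the diaphragm protein of fenestrated vessels, stood at 16.0 and 11.3 FPKM (log2 ratio -0.47). These 3 general markers differed from each other by little, and between 6.62% and 10.2% of compared genes had a lower log2 ratio.

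Smaller differences were seen in the other surface genes. Cd34, a sialomucin of vessel and blood progenitors and the most abundant of this group, stood at 18.5 and 14.2 FPKM, that is 0.766 of the control (0.704 to 0.834), and the sialomucin gene Emcn at 13.7 and 10.6. Mmrn2, a matrix protein of vessels, stood at 2.35 and 1.70 FPKM, and its binding partners Cd93 and Clec14a at 4.56 and 3.59 and at 1.76 and 1.46. Ecscr, a regulator of endothelial cell motility, stood at 6.54 and 5.84 FPKM. Its log2 ratio of -0.14 was 0.01 below the median gene, and the counting intervals of Ecscr and Clec14a held the ratio of the median gene.

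Receptors were divided. Those that act with TGF-beta family ligands were among the lowest. Eng, or endoglin, the coreceptor for BMP9 and BMP10, on chromosome 2 from 32646595 to 32682669, had 5.86 FPKM in control and 3.22 in mutant tissue, 1.82-fold lower (1.58 to 2.11). Acvrl1, or ALK1, the type I receptor that acts with it, on chromosome 15 from 101128537 to 101145336, stood at 3.84 and 2.03 FPKM, 1.90-fold lower (1.58 to 2.28). The log2 ratios of Eng (-0.70) and Acvrl1 (-0.68) differed by 0.02, and the ratio of their levels was 1.53 in control and 1.59 in mutant tissue.

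Before transcript length was considered, the VEGF receptors lay near the median gene. Kdr, the main signalling receptor for VEGF-A, on chromosome 5 from 75933270 to 75978428, stood at 7.27 and 6.35 FPKM (log2 ratio -0.17). Flt1, which binds VEGF-A but signals weakly, stood at 2.62 and 2.52 FPKM, and Flt4, the receptor for VEGF-C, at 2.48 and 2.23. The counting intervals of all 3 held the ratio of the median gene. With the angiopoietin receptors the partners differed. Tek, the receptor itself, stood at 2.42 and 2.33 FPKM (log2 ratio -0.04), and the orphan receptor Tie1 at 5.88 and 3.92, a log2 ratio of -0.48. The interval of Tek (0.816 to 1.13 of control) did not overlap that of Tie1 (0.587 to 0.760).

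The adrenomedullin receptor gave the widest gap in log2 ratio among 10 pairs of related genes. It is formed by the receptor protein Calcrl and the accessory protein Ramp2. Ramp2, the most abundant of the 38 genes, on chromosome 11 from 101246334 to 101248250, had 20.5 FPKM in control and 12.8 in mutant tissue, 1.59-fold lower (1.38 to 1.85). Calcrl, on chromosome 2 from 84330627 to 84425266, stood at 2.75 and 3.57 FPKM, a ratio of 1.30 (1.123 to 1.503). The level of Ramp2 was 7.45 times that of Calcrl in the control and 3.60 times in the mutant. Their log2 ratios differed by -0.92, or by -0.63 once the ratio of genes of like length was subtracted from each, where the Ramp2 transcript has 872 bases and the Calcrl transcript 4736. On that second scale the gaps of Sox18 and Sox17 (-0.75) and of Ets1 and Fli1 (-0.68) were wider.

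The remaining receptor genes lay between these. The apelin receptor gene Aplnr, a marker of venous and sprouting endothelium, stood at 11.0 and 7.88 FPKM (log2 ratio -0.44), and its ligand gene Apln at 2.83 and 2.25, a log2 ratio of -0.24. S1pr1, the sphingosine 1-phosphate receptor of endothelium, stood at 3.43 and 2.48 FPKM. Gpr116, an adhesion receptor now named Adgrf5, stood at 1.59 and 1.749 FPKM, a ratio of 1.10 (0.945 to 1.28).

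Transcription factors held both the lowest gene and, in Sox17 and Fli1, genes near 0. Sox18, on chromosome 2 from 181669837 to 181671640, had 13.8 FPKM in control and 6.98 in mutant tissue. It was 1.97-fold lower (1.72 to 2.27), with the lowest log2 ratio of the 38 genes, -0.89, lower than in all but 1.83% of compared genes. Its relatives differed less. Sox7 stood at 2.56 and 1.61 FPKM (log2 ratio -0.45), and Sox17, which marks arteries and also endoderm, at 1.40 and 1.31, a log2 ratio of -0.06. The ratio of Sox17 was 0.935 (0.683 to 1.28), on about 81 and 88 fragments. The level of Sox18 was 5.38 times that of Sox7 in the control and 4.32 times in the mutant.

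ETS genes were unlike each other. Ets1 and Fli1 lie 154674 bases apart on chromosome 9, and both are also known in other tissues, including neural crest derivatives. Ets1 stood at 14.1 FPKM in control and 9.73 in mutant tissue, a log2 ratio of -0.49, whereas Fli1 stood at 15.7 and 16.3, a ratio of 1.03 (0.957 to 1.12). Their levels were in the ratio 0.896 in control and 0.599 in mutant tissue. Erg, the ETS factor most restricted to endothelium, stood at 2.90 and 2.08 FPKM (log2 ratio -0.34). Its interval (0.562 to 0.914 of control) held the ratio of the median gene and the whole interval of Ets1 (0.641 to 0.744).

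The 5 signalling and secreted genes had a median log2 ratio of -0.26. The interval of 2 lay below the ratio of the median gene, against 29.1% of all compared genes, and that of 1 above it, against 32.1%. With 5 genes these counts cannot be told from those shares. Egfl7, a secreted matrix protein of vessels, stood at 15.1 and 12.2 FPKM (log2 ratio -0.29). Rasip1, a Ras-interacting protein needed for the vessel lumen, stood at 4.55 and 3.13 FPKM (log2 ratio -0.43). The adaptor gene She stood at 1.68 and 1.25 FPKM, and Nos3, the endothelial nitric oxide synthase, at 1.32 and 1.01. The intervals of Egfl7 and Nos3 held the ratio of the median gene. Lmo7, which is also known in epithelium and muscle, stood at 2.87 and 3.23 FPKM, a ratio of 1.13 (0.980 to 1.30). The scavenger receptor gene Stab1, used by sinusoidal endothelium and macrophages, stood at 2.85 and 2.93 FPKM.

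The 8 genes under the filter were low in both libraries. Just inside the filter were Nos3, with a mean of 1.16 FPKM, and Sox17, with 1.35, and just outside were Esm1, with 0.854, and Vwf, with 0.652. Vwf, the clotting factor of mature endothelium, stood at 0.908 FPKM in control and 0.396 in mutant tissue on about 135 and 80 fragments. These are split over 7 annotated transcripts from 2184 to 8817 bases long, of which the longest held 53.9% of the sum in control and 75.8% in mutant tissue, so the size of the FPKM difference is uncertain. Ptprb, the phosphatase of the Tek receptor, stood at 0.399 and 0.581 FPKM on about 107 and 140 fragments and has the longest transcript of the 46 genes, 11912 bases. Its ratio was 1.46 (1.13 to 1.89), with the interval above the ratio of the median gene. The longer of its 2 annotated transcripts held 85.5% of the sum in control and 64.1% in mutant tissue, so the size of this difference is uncertain too. Esm1, a marker of tip cells, stood at 0.850 and 0.857 FPKM, the thromboxane receptor gene Tbxa2r at 0.643 and 0.445, and the transcription factor gene Tal2 at 0.350 and 0.333. Etv2, the transient factor of angioblasts, stood at 0.0447 and 0.116 FPKM on about 1 and 4 fragments, and the sinusoidal and lymphatic receptor genes Stab2 and Lyve1 at 0.110 and 0.0957 and at 0.0707 and 0.0855. At this depth no difference was detectable for Esm1, Tbxa2r, Tal2, Etv2, Stab2 or Lyve1, because their counting intervals held 1.

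Transcript length moved with these ratios. Over the 12259 compared genes, the log2 ratio and the length of the most abundant transcript had a Spearman rho of 0.41 (genes of 1 library are not replicates), and over the 38 endothelial genes, which share both libraries, rho was 0.47. Among endothelial genes, the median log2 ratio of the 8 with up to 2000 bases was -0.64, against -0.25 for all 4056 genes of that length. The 18 of over 2000 and up to 4000 bases had -0.43, against -0.14 for 4951 genes, and the 12 over 4000 bases had -0.14, against 0.04 for 3252 genes. Each length class therefore lay below its background, by 0.38, 0.29 and 0.18. Against the running median of the genes nearest in length, 250 on either side, 32 of the 38 were lower, where 49.7% of all compared genes were, and their median difference was -0.23. On that scale Sox18 (-0.66), Eng (-0.59), Acvrl1 (-0.59), Robo4 (-0.58), Cldn5 (-0.53) and Ets1 (-0.50) were lowest, and Ecscr (0.18), Fli1 (0.17) and Calcrl (0.30) highest. Gpr116 and Stab1, slightly higher before, were at -0.15 and -0.17. Of the VEGF receptors, Kdr was at -0.20, Flt4 at -0.15 and Flt1 at 0.08. The part that length or the runs play in these ratios beyond this subtraction was not tested.

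**Figure D2:**
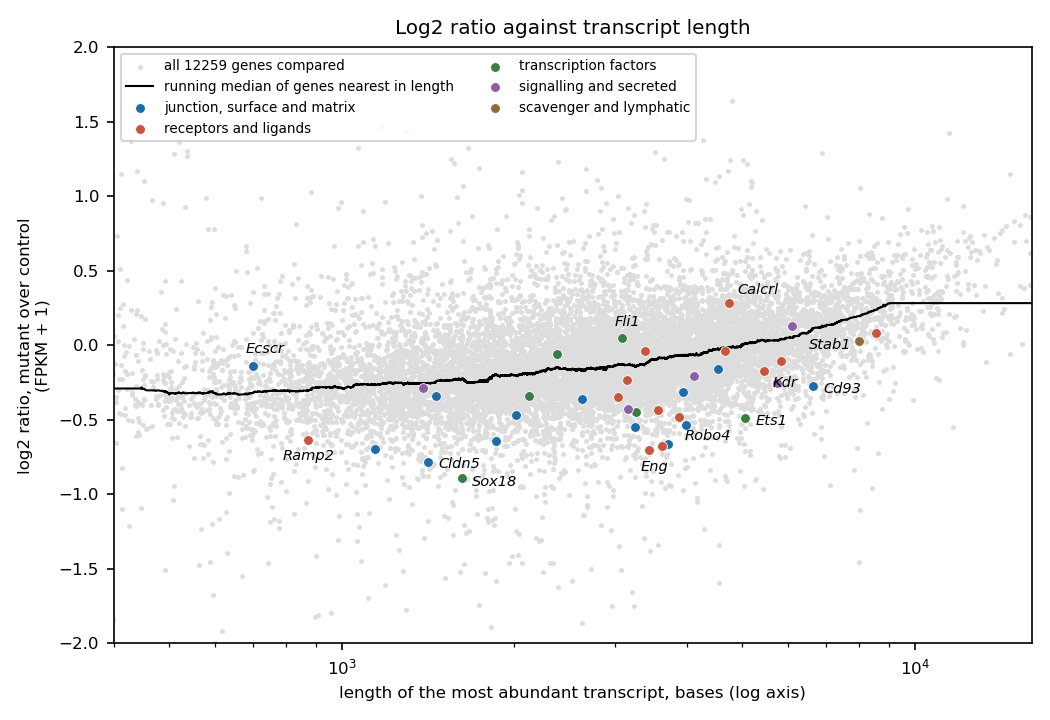
Log2 ratio of mutant over control FPKM, with a pseudocount of 1, against the length of the most abundant transcript (log axis) for all 12259 compared genes (grey) and the 38 endothelial genes over the filter (coloured by role); the black line is the running median of genes nearest in length, flat at both ends, and some grey points lie outside the axes or under the key. The line rises with length, and most coloured points lie below it, from Sox18 at -0.89 to Cd93, which lies 0.39 below the line at 6638 bases.

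Several genes were split over transcripts that Cufflinks apportioned differently in the libraries. Pecam1 has 4 annotated transcripts of like length. Its most abundant, of 3248 bases, stood at 4.93 and 4.56 FPKM, whereas that of 3305 bases stood at 3.27 and 1.19 and that of 3025 bases at 1.78 and 0.207. Pecam1 lay 0.06 above the median gene when the most abundant transcript alone was used. For Tek the transcript of 4654 bases held 38.4% of the sum in control and 82.9% in mutant tissue and that of 4651 bases 61.6% and 17.1%, while the sum differed by 3.87%. Such near-identical transcripts share most of their sequence, so the split is uncertain and sums are used here. Flt1 is known to give a full-length receptor and a soluble form from a shorter transcript. Its annotated transcripts of 6280 and 3384 bases went from 1.24 to 1.30 and from 1.38 to 1.22 FPKM. Of Egfl7, the transcript of 1388 bases stood at 7.31 and 5.40 FPKM and that of 1164 bases, which starts further downstream, at 5.67 and 6.20. The 18 compared endothelial genes with 1 annotated transcript, which have no such split, had a median log2 ratio of -0.33, and the 20 with several had -0.34.

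**Figure D3:**
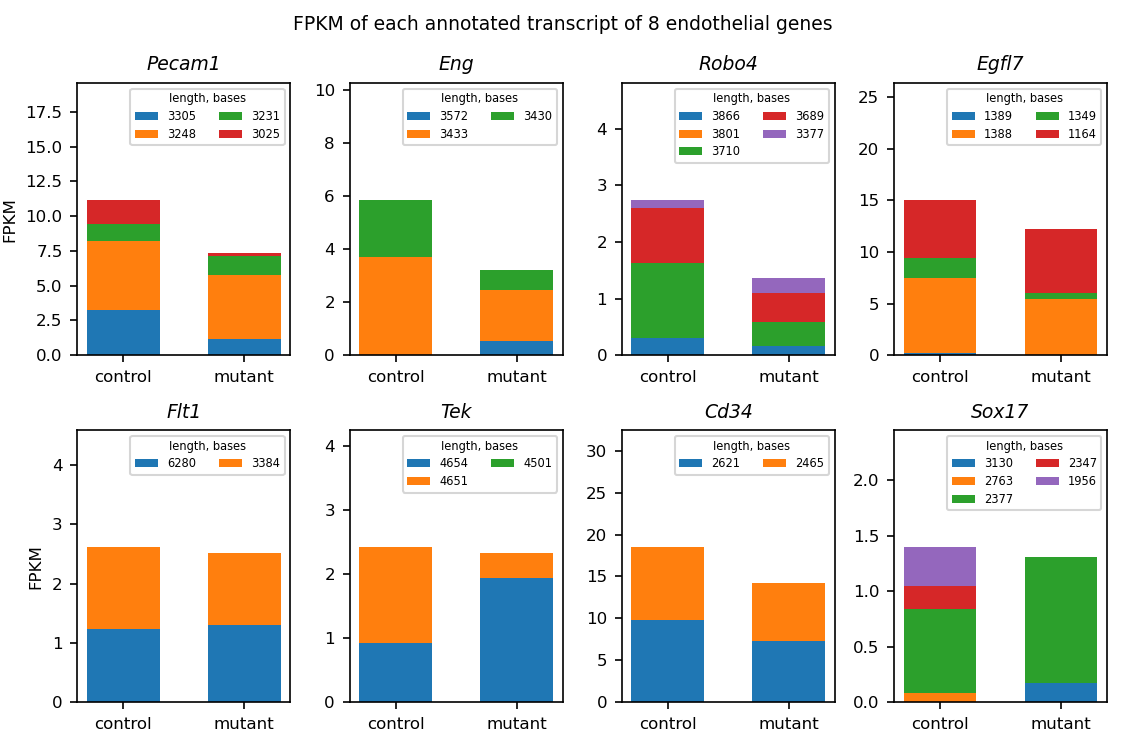
FPKM of each annotated transcript, stacked to the sum of the gene, in the control and mutant libraries for 8 endothelial genes; colours mark transcripts by their length in bases, the y axes start at 0 and differ between panels. Pecam1, Eng and Robo4 have shorter bars in the mutant, whereas Flt1 and Tek have nearly equal bars, those of Tek with the shares of its 4654 and 4651 base transcripts exchanged.

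Ligands and modulators of vessel growth lay on both sides of the median gene. Of 22 listed genes, 16 were over the filter, with a median log2 ratio of -0.15; 8 lay below and 8 above the median gene, and 0 were 2-fold different. Nrp1, the neuropilin that serves as a VEGF-A coreceptor and also binds semaphorins, was lowest at 7.30 FPKM in control and 3.94 in mutant tissue, a log2 ratio of -0.75. Vegfc, which encodes a ligand of Flt4, stood at 7.54 and 4.78 FPKM (log2 ratio -0.56). The netrin receptor gene Unc5b stood at 14.4 and 21.3, a log2 ratio of 0.53. Hif1a, the most abundant, stood at 38.4 and 37.0 FPKM. The other VEGF family genes were singled out after their values were seen, and they differed in direction. Vegfa, the ligand of Kdr, stood at 16.2 and 19.3 FPKM, a ratio of 1.19 (1.11 to 1.28). Figf, which encodes VEGF-D, stood at 2.46 and 3.97 FPKM, a ratio of 1.62 (1.27 to 2.07). Vegfb, at 34.6 and 24.6 FPKM (log2 ratio -0.48), and Pgf, at 2.36 and 1.53 (-0.41), were lower. Gdf2 and Bmp10, which encode the ligands of Eng and Acvrl1, were listed at 0 in both libraries.

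Among Notch and arterial or venous genes, 15 of 18 were over the filter, with a median log2 ratio of -0.07, and 6 lay below and 9 above the median gene. The lowest were Hey1, a Notch target, at 9.17 and 4.70 FPKM (-0.83), and the arterial connexin genes Gja4, at 3.38 and 1.51 FPKM (-0.81), and Gja5, at 2.02 and 0.993 (-0.60). Ephb4, a receptor of veins that is also used outside vessels and the most abundant of the list, stood at 54.6 and 39.3 FPKM. The endothelial Notch genes Dll4, at 1.38 and 1.19 FPKM, and Notch4, at 1.36 and 1.34, were singled out after their values were seen. So were Jag2, at 7.18 and 10.6 FPKM (0.51), and Notch1, at 5.20 and 7.06 (0.38), which lay above the median gene. Once the ratio of genes of like length was subtracted, Jag2 was at 0.57 and Notch1 at 0.10. Of 7 further lymphatic genes, 4 were over the filter, with a median of -0.11. Foxc2, which is also a factor of jaw mesenchyme, stood at 10.9 and 3.22 FPKM (-1.50), Itga9 at 6.33 and 5.49 (-0.18) and Nrp2 at 16.1 and 16.8 (0.06).

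Of 27 other vessel-associated genes, 23 were over the filter, with a median of -0.31 and 16 below the median gene, and 2 were 2-fold lower. These 2 were Klf4, a flow-responsive factor also used in epithelium, at 5.995 and 1.750 FPKM (-1.35), and Tal1, a factor of blood and endothelial progenitors that erythroid cells also express, at 6.84 and 2.85 (-1.03). The tetraspanin gene Tspan18 stood at 8.22 and 4.31 FPKM (-0.79), and Col4a1, a basement membrane collagen and the most abundant of this list, at 41.6 and 35.3. Of 13 mural cell genes, 8 were over the filter, with a median of -0.35, and 5 of them lay below 0 and 3 above. All 13 summed to 77.4 FPKM in control and 66.3 in mutant tissue. Acta2, also a gene of early muscle, stood at 10.8 and 3.09 FPKM (-1.53), and Rgs5 at 3.63 and 6.28 (0.65). Des, also of muscle, stood at 7.59 and 4.66 FPKM (-0.60), and Notch3, the most abundant, at 17.99 and 23.7. The rest over the filter were Mcam (-0.56), Anpep (-0.36), Pdgfrb (-0.33) and Tagln (0.14).

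Blood cell genes had lower medians than the endothelial genes in the same libraries. Of 18 erythroid genes 14 were found, all over the filter, and 11 were 2-fold lower, with a median of -1.17. Of the 14, 13 lay below the median gene, and Tfrc, at 28.4 and 33.3 FPKM (0.23), lay above it. The summed level of the 14 was 25963 FPKM in control and 7362 in mutant tissue, most of it from the globins. The embryonic globin gene Hbb-y stood at 13483 and 3572 FPKM and Hba-x at 6676 and 1672. Hba-a2, which has a near-identical copy, so that its reads are uncertain, stood at 1883 and 362. Of 8 megakaryocyte and platelet genes 5 were over the filter, with a median of -0.73. The platelet chemokine genes Pf4, at 24.6 and 8.34 FPKM (-1.45), and Ppbp, at 9.21 and 2.74 (-1.45), were 2-fold lower, and Itga2b stood at 2.07 and 0.854 (-0.73). The 8 summed to 40.7 FPKM in control and 14.3 in mutant tissue. Of 13 macrophage and leukocyte genes 9 were over the filter, with a median of -0.61. Of the 9, 7 lay below the median gene and 2 above it, C1qb and Cd68, the latter at 1.49 and 2.21 FPKM (0.37). All 13 summed to 30.8 and 19.7 FPKM; Lyz2 had -0.98, Fcer1g -0.88, C1qa -0.66 and C1qb, the most abundant, stood at 3.82 and 3.47 FPKM. Pecam1, Icam2, Cd34, Fli1 and Cd93 are also used by platelets, leukocytes or blood progenitors, and the part of blood cells in their values was not tested.

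Mesenchyme and epithelium genes had medians near or above 0. The 10 neural crest mesenchyme genes had a median of 0.03, with 4 below the median gene, and summed to 704 FPKM in control and 671 in mutant tissue; Twist1, the most abundant, had -0.39, Msx1 0.36 and Col3a1 -0.26. The 11 oral epithelium genes had a median of 0.33, with 3 below the median gene, and summed to 186 and 206 FPKM; Krt15 had -1.13, Krt5 -0.72 and Krt18 0.48, and Cldn6, the most abundant, stood at 31.0 and 39.6 FPKM. Unc5b, Nrp2 and Mcam each stand in a pair of these lists. The part of tissue shares in the endothelial ratios was not tested.

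**Figure D4:**
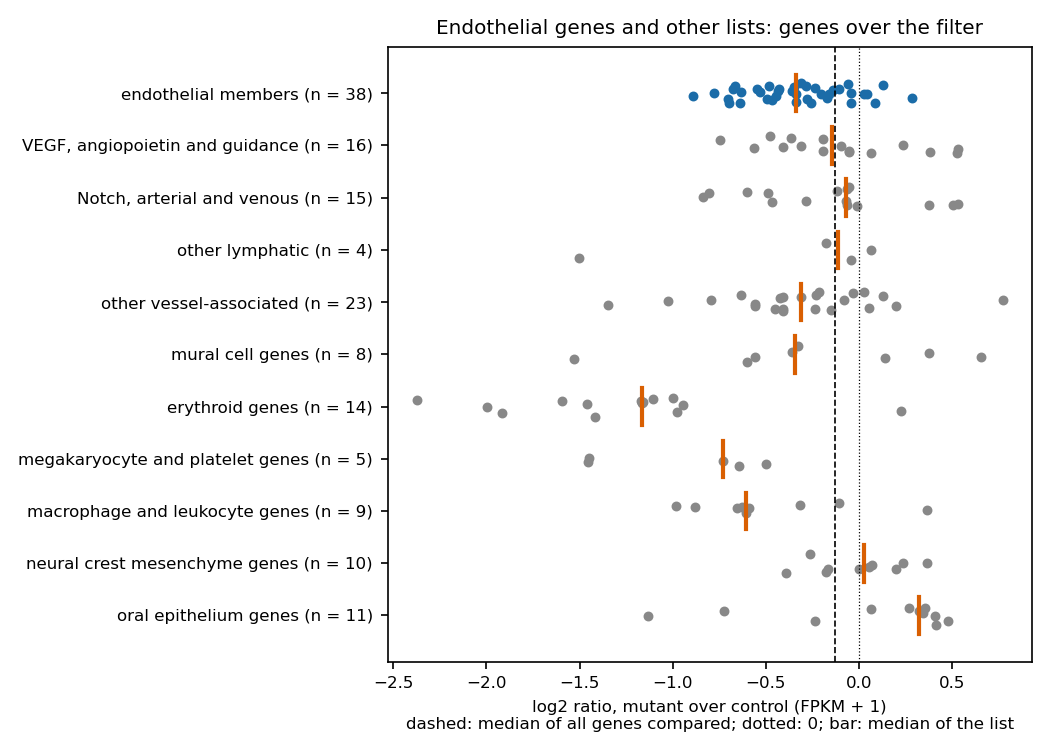
Log2 ratio of mutant over control FPKM, with a pseudocount of 1, for each gene over the filter in the endothelial list (blue) and 10 other lists (grey), spread vertically at random for legibility; orange bars are list medians, the dashed line is the median of all compared genes at -0.13 and the dotted line is 0. The endothelial points span -0.89 to 0.29 with a median of -0.34, the erythroid points lie mostly below -1 and the oral epithelium points mostly above 0.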

How the data were processed

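RNA of mandibular prominences was sequenced from 1 control and 1 mutant pool of 10 embryos each. The authors deposited 1 table per library with a coverage signal and an FPKM value per UCSC transcript, per the file headers; Cufflinks is named in the names of the tables, and neither its version nor an aligner is named there. The build is mm9 per the submitters' processing notes, but of 45348 transcripts with a symbol in GENCODE's GRCm38 annotation, 52.0% had an identical start after 1 was added and 51.4% an identical end. Coordinates are therefore printed 1-based on GRCm38, for the most abundant transcript of a gene. From both tables, 65 lines each with displaced columns were dropped, which left 59055 transcripts. Of these, 404 in the control were marked LOWDATA and 6 in the mutant FAIL, none of them of an endothelial gene.

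FPKM was summed per symbol in Python 3.11.15 (pandas 2.3.3, scipy 1.17.1), with a pseudocount of 1 and a filter at a mean FPKM of 1. Fragments were approximated as coverage times length over 156 bases (control) and 153 bases (mutant), the yield of 1 fragment read from the lowest values, so intervals are approximate. The interval and the removal of the length trend were tested on simulated data. No p-value was computed, as the design has no replicates. All endothelial genes are named. Of another list, the 3 with the largest absolute log2 ratio and the most abundant are named, and in some lists further genes. The members and lists were chosen with earlier results of these data known. Alternatives were other pseudocounts, filters and scalings, the most abundant transcript alone, removal of the length trend and removal of transcripts not marked OK.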

Additional observations from a re-analysis of the deposited data

How the results depend on the processing

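Of the 38 compared endothelial genes, 25 lay below the median gene in the values reported and under all of the 11 alternatives that kept them, 3 (Calcrl, Fli1 and Lmo7) above it, and 10 on both sides: Clec14a, Ecscr, Flt1, Flt4, Gpr116, Nos3, Pecam1, Sox17, Stab1 and Tek. Centring cannot move a gene across the median gene, and removal of transcripts not marked OK left the endothelial values unchanged. These settings therefore add no support. The other filters also left the values of the endothelial genes they kept unchanged and moved only the median gene. The scalings multiply a whole library by 1 factor, so a gene can cross the median gene only through the pseudocount. The filters and scalings therefore add little support. Some of the 25 came close to the median gene, She to -0.008 and Erg to -0.015. The share of all compared genes that stayed below it is not given. Under the 11 alternatives 0 of the compared endothelial genes were 2-fold lower or higher. Scaling to a common total moved the median of all genes to 0.39, with 465 genes 2-fold higher and 70 lower against 94 and 167 before, and the median of the endothelial genes to 0.094, with 33 of 38 still below the median gene. The same scaling without transcripts under 200 bases gave 0.11 for all genes (159 higher, 110 lower) and -0.12 for the endothelial genes. Centring gave 132 higher and 129 lower, scaling to the 75th percentile 125 and 137, and removal of the length trend 132 and 106; pseudocounts of 0.1 and 5 gave 179 and 312, and 36 and 56, and a filter at 5 FPKM 54 and 88. The difference of the endothelial median from the median gene was -0.21 and stayed between -0.33 and -0.09. No paired analysis was possible because each group is 1 library.

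The following list medians, relative to the median gene, fell outside the median lower and upper counting bounds of their genes in the values reported. These bounds are not an error of a list median. Pseudocount 0.1: erythroid -1.24, platelet -1.04. Pseudocount 5: other vessel-associated -0.11, erythroid -0.91, platelet -0.18, oral epithelium 0.30. No filter: Notch and arterial -0.093, lymphatic -0.18, other vessel-associated -0.30, mesenchyme 0.027. Without the filter the median of all 30723 genes is 0 rather than -0.13, which shifts every list. The mesenchyme genes were all over the filter, and their own median was 0.027 in both settings. Filter at 5 FPKM: mural -0.41, erythroid -1.29, platelet -1.31. Most abundant transcript: mural 0.010, platelet -0.98. Length trend removed: lymphatic -0.18, other vessel-associated -0.29. A filter changes no log2 ratio of a gene, so under the filter settings only the median gene and the genes counted in a list differ. For the other settings the cause was not tested. Low depth limits the genes under the filter.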
